A study of Homo sapiens with 12 samples.

Results

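The p38 MAPK module was followed through 10 genes, chosen by gene symbol: the kinases that phosphorylate p38 (MAP2K3, MAP2K6 and MAP2K4), the p38 kinases themselves (MAPK14, MAPK11, MAPK12 and MAPK13) and kinases that p38 activates (MAPKAPK2, MAPKAPK3 and RPS6KA5). All 10 were listed among the 19907 symbols of every library, and all 10 were among the 18579 genes that were tested. RNA-seq was done in MDA-MB-231 cells, an established human triple-negative breast cancer line. The wt-GR cells were a clone that kept an unedited glucocorticoid receptor (GR) after the CRISPR procedure, and the S134A-GR cells were clone #1, in which Ser134 of GR was replaced by alanine in both alleles. Cells were kept for 18 h in serum-poor medium (1% DCC, serum stripped with charcoal) before 6 h of vehicle or of 10 ng/mL TGFβ1, and no GR ligand was added. Each of the 4 groups had 3 libraries, 12 in all. Each line was 1 clone, so that the effect of the mutation and a difference between clones cannot be told apart. The sources used here do not say that the libraries of a group came from separate cultures, so p-values measure the spread between these libraries.

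p38 MAPKs are stress-activated kinases at the end of a relay in which a MAP3 kinase phosphorylates a MAP2 kinase, and the MAP2 kinase phosphorylates p38. MKK3 (MAP2K3) and MKK6 (MAP2K6) act on p38 with high selectivity, while MKK4 (MAP2K4) also acts on JNK. TGFβ1 can switch on the relay through TAK1 in addition to SMAD signaling, and p38 activity is linked to migration and stress responses in breast cancer cells. The relay is controlled by phosphorylation, which RNA-seq does not measure, and the values below are transcript levels only.

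Values are normalized counts, that is, read counts of a gene divided by the size factor of the library. Recovered totals ran from 56.4 to 129.8 in units of 1e6 reads (median 90.4). They are above the depth stated in the methods of the study, and whether the mates of a pair were counted separately is not given in the sources used here, so a read may be less than a whole fragment. A floor of 3 reads, which covers counting error only, corresponded to 2.15 to 4.89 normalized counts. The markers of the line VIM, CD44 and EGFR were high (EGFR at 13848 or more in every library), while ESR1, CDH1, PTPRC and ALB stayed between 0 and 12.5 normalized counts. PECAM1, an endothelial marker, was not absent, at 746 to 1454. NR3C1, which encodes GR, was 11771 ± 1186 (SD, n = 3) in the wt-GR line and 8815 ± 259 in the S134A-GR line under vehicle, and its level says nothing of the point mutation. SMAD7, SKIL and PMEPA1, well-known TGFβ1 targets, rose in both lines, with log2 fold changes of 1.19 to 2.90 in the wt-GR line and 1.32 to 2.18 in the S134A-GR line.

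The first question was how the module responded to TGFβ1 within each line. In the wt-GR line 4 of the 10 members changed at an FDR under 0.05 (limma, Benjamini-Hochberg over all genes tested), where 21.0% of all genes did. MAP2K6, MAP2K3 and MAPKAPK3 fell and MAPK13 rose. In the S134A-GR line these 4 genes changed in the same directions, where 18.7% of all genes changed. Many genes of low level cannot pass the test, and among the 11876 genes at least as abundant as the least abundant member, MAP2K6, 29.4% and 26.5% changed. The median log2 fold change of the members was −0.069 in the wt-GR line and −0.099 in the S134A-GR line, beside −0.0046 and −0.0097 over all genes. Responses were small for most members. The exception was MAP2K6, at −1.31 in the wt-GR line and −1.79 in the S134A-GR line. It was the 1 member past 1.5 in absolute log2 fold change in the S134A-GR line, and 0 members passed that cutoff in the wt-GR line.

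**Figure D1:**
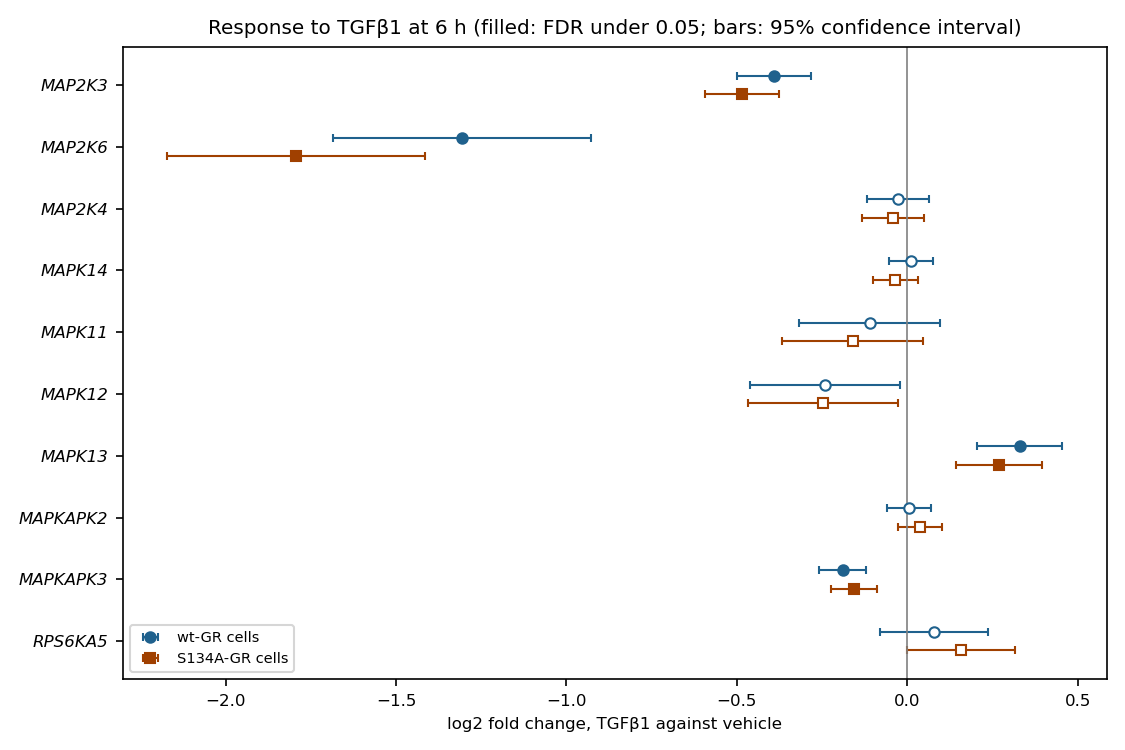
Response of the 10 members to TGFβ1. The x axis gives the log2 fold change of TGFβ1 against vehicle, circles stand for the wt-GR line and squares for the S134A-GR line, bars are 95% confidence intervals, and filled symbols passed an FDR of 0.05. The filled symbols are those of MAP2K3, MAP2K6, MAPK13 and MAPKAPK3 in both lines, with MAP2K6 farthest from 0 at −1.31 and −1.79.

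MAP2K6 encodes MKK6 and is located at chr17:69414697-69553865 on the plus strand of hg38 (GENCODE v44). It had the largest response among the members. Its normalized counts in the wt-GR line were 288, 368 and 311 under vehicle and 138, 137 and 114 under TGFβ1. The S134A-GR line had 157, 141 and 151 under vehicle and 55.2, 40.5 and 34.3 under TGFβ1. Every TGFβ1 library lay below every vehicle library of its line, and the S134A-GR libraries under vehicle lay close to the wt-GR libraries under TGFβ1. MAP2K6 fell by 59.5% in the wt-GR line (log2 fold change −1.31, standard error 0.18, adjusted p = 9.3e-05 by limma). It fell by 71.1% in the S134A-GR line (log2 fold change −1.79, adjusted p = 5.0e-06 by limma). These levels rested on 40 or more reads in every library, and the 3 S134A-GR libraries under TGFβ1 varied by 24.7% (coefficient of variation), the widest spread of any member and group.

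MAP2K3 encodes MKK3, the counterpart of MKK6, and lies at chr17:21284672-21315232 on the plus strand. In the wt-GR line its normalized counts were 11257, 11062 and 12004 under vehicle and 8826, 8496 and 8836 under TGFβ1. The values of the S134A-GR line were 16809, 15327 and 16153 under vehicle and 10845, 11313 and 12400 under TGFβ1. The groups of each line did not overlap, and S134A-GR cells under TGFβ1 had about the level of the wt-GR line under vehicle (11520 ± 798 and 11441 ± 497, SD, n = 3). MAP2K3 fell by 23.8% in the wt-GR line (log2 fold change −0.39, standard error 0.051, adjusted p = 6.4e-05 by limma) and by 28.5% in the S134A-GR line (log2 fold change −0.48, adjusted p = 9.8e-06). A share of 10.1% of the 75-base stretches of its exons occurs elsewhere in the genome, mainly in another gene of chromosome 17, so some of its reads could be split or lost in counting.

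MAPKAPK3 encodes MK3, a kinase that p38 activates, and is located at chr3:50611520-50649291 on the plus strand. Its normalized counts were 12954, 13195 and 13476 under vehicle and 11742, 11202 and 11796 under TGFβ1 in the wt-GR line. In the S134A-GR line they were 12468, 12398 and 12145 under vehicle and 11212, 10995 and 11015 under TGFβ1. The decrease was small, but the replicates were close and the groups of each line stayed apart. MAPKAPK3 fell by 12.3% in the wt-GR line (log2 fold change −0.19, standard error 0.032, adjusted p = 6.1e-04 by limma) and by 10.2% in the S134A-GR line (log2 fold change −0.16, adjusted p = 0.0031). Its annotated exons share 218 bases with CISH on the opposite strand, and whether counting used strand is not given in the sources used here.

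MAPK13 encodes p38δ and lies at chr6:36127809-36144524 on the plus strand. It was the member that rose. In the wt-GR line its normalized counts were 6434, 6966 and 6587 under vehicle and 8637, 8106 and 8371 under TGFβ1. The S134A-GR line had 5819, 5631 and 5846 under vehicle and 6213, 7485 and 7206 under TGFβ1. The groups of each line did not overlap, although the first TGFβ1 library of the S134A-GR line stayed nearer to vehicle than the other two. MAPK13 rose by 25.7% in the wt-GR line (log2 fold change 0.33, standard error 0.058, adjusted p = 9.4e-04 by limma) and by 20.5% in the S134A-GR line (log2 fold change 0.27, adjusted p = 0.0047). The call in the S134A-GR line was lost in a fit of only the groups compared (adjusted p = 0.059).

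The stretches upstream of the RefSeq starts of these 4 genes are shown because their transcripts moved with TGFβ1 in both lines. They are the parts of the 250 bases before the RefSeq start (GRCh38.p14) that hold no annotated exon base of the gene, all on the plus strand: chr17:69414447-69414696 for MAP2K6, chr17:21284461-21284671 for MAP2K3, chr3:50611738-50611876 for MAPKAPK3 and chr6:36130263-36130483 for MAPK13. The RefSeq starts of MAPK13, MAPKAPK3 and MAP2K3 lie 2704, 357 and 39 bases downstream of the first exon base in GENCODE, so the stretches of MAPK13 and MAPKAPK3 lie within the gene spans given above, in parts without an annotated exon. Capitals mark matches to CAGAC on either strand, the short motif that SMAD proteins recognize.
MAP2K6: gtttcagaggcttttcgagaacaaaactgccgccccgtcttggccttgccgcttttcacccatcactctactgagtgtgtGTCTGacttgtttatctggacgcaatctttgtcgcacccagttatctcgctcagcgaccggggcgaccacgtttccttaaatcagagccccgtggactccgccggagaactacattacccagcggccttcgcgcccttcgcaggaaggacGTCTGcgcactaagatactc
MAP2K3: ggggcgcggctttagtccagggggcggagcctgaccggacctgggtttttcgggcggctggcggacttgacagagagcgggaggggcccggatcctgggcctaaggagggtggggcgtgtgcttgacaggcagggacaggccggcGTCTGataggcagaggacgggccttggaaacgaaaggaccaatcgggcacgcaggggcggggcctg
MAPKAPK3: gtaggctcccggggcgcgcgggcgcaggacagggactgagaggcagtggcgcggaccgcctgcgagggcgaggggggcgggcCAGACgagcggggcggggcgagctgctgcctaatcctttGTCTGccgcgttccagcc
MAPK13: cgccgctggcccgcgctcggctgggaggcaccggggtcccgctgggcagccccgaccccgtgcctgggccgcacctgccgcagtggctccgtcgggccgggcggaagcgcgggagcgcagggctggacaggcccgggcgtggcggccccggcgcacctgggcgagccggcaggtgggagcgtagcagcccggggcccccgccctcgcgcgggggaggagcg

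Over the whole 250-base windows, CAGAC occurred on either strand in 6 of the 9 members that had an entry, while 37.8% of 27305 promoters of that length held it. MAP2K6 had 2 matches, MAPKAPK3 had 2 and MAP2K3 had 1, and the windows of MAPK13, MAPK14 and MAPK12 held 0. MAP2K4, MAPK11 and RPS6KA5 also held it, and these genes did not pass the test for a TGFβ1 response. The SMAD palindrome GTCTAGAC was searched too and occurred in 0 of the 9 windows (0.176% of all promoters), as did the CRE motif TGACGTCA (0 of 9, beside 1.77%). The AP-1 motif TGANTCA was found in 1 window, that of MAP2K3, across the end of the stretch shown (6.60% of all promoters). A match is a description of the letters and not a binding site. MAPKAPK2 had no entry.

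**Figure D2:**
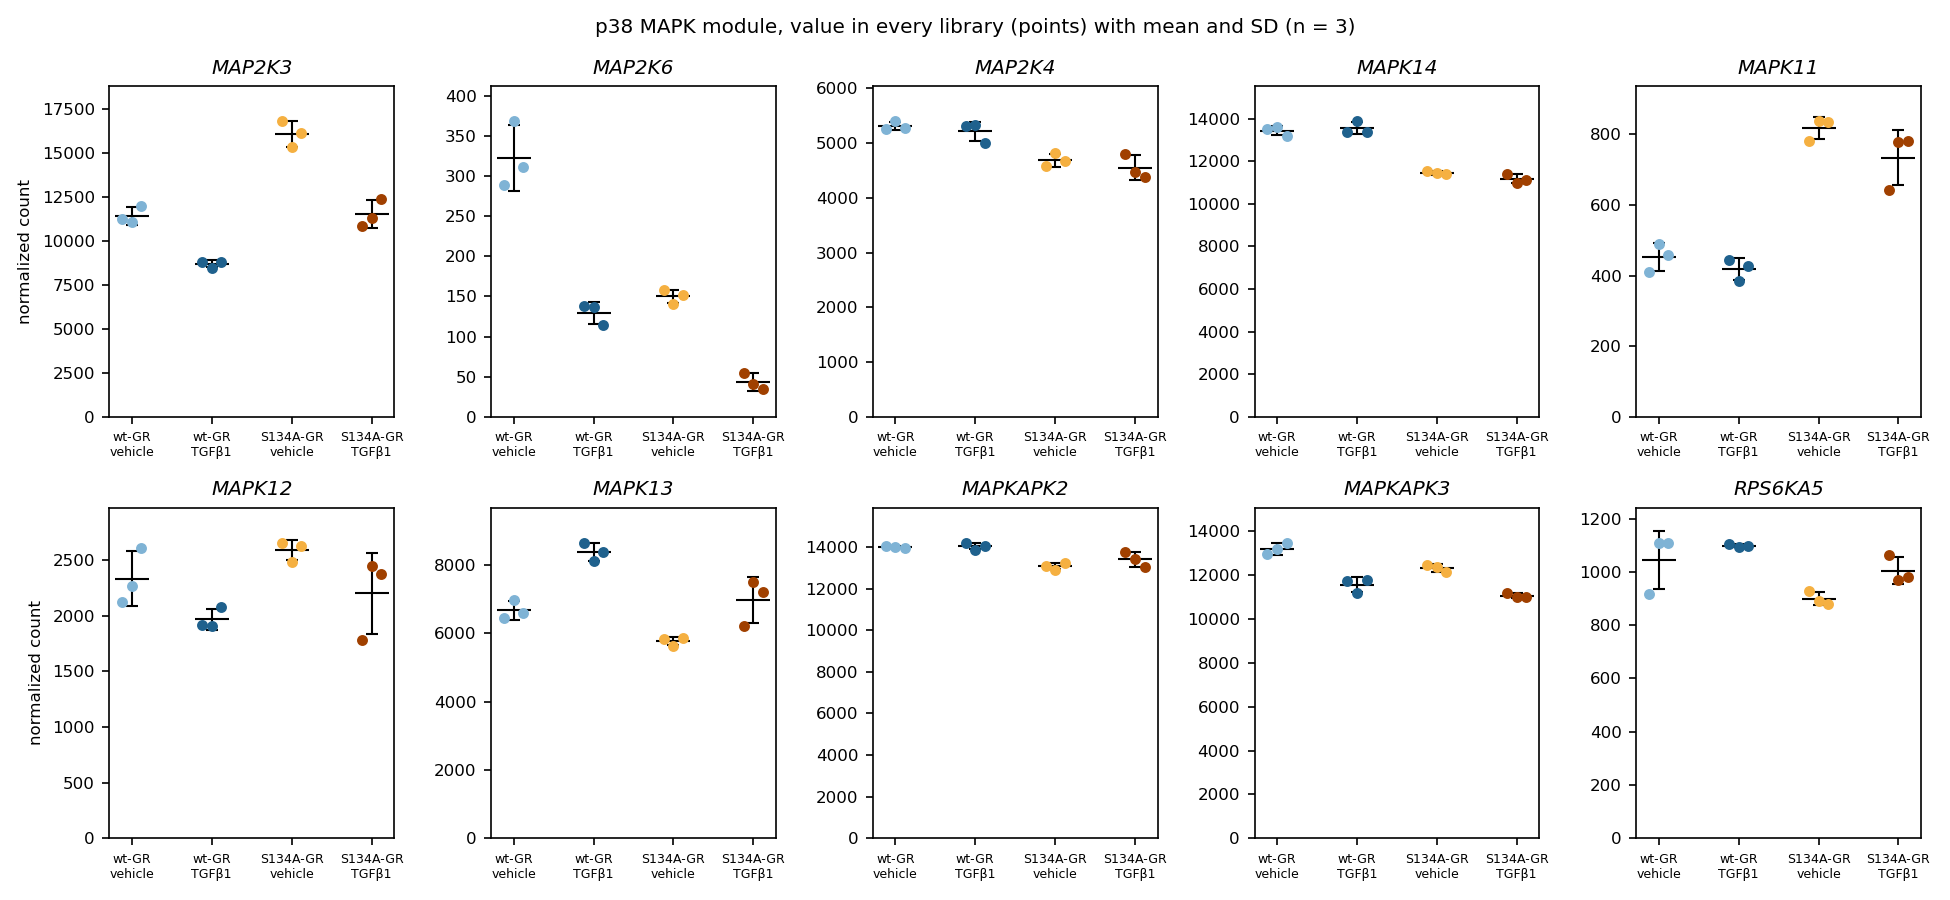
Normalized count of each member in every library. Points are the 12 libraries by group, the black line is the group mean and the error bars are the SD (n = 3), and every y axis starts at 0. MAP2K6 and MAP2K3 drop with TGFβ1 in both lines, and MAPK13 rises. MAPK14 and MAPKAPK2 change little with TGFβ1 within each line, and MAPK14 is lower in the S134A-GR line.

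The other p38 genes did not pass the test for TGFβ1 in either line. MAPK14, which encodes p38α, the main form in most cells, lies next to MAPK13 at chr6:36027782-36111236, with 16572 bases and no protein-coding gene between them. Its normalized counts were 13519, 13619 and 13203 under vehicle and 13394, 13873 and 13386 under TGFβ1 in the wt-GR line. The values of the S134A-GR line were 11552, 11434 and 11385 under vehicle and 11424, 10994 and 11139 under TGFβ1. The groups of each line overlapped. The log2 fold changes of MAPK14 were 0.011 in the wt-GR line (95% confidence interval −0.054 to 0.076) and −0.035 in the S134A-GR line (−0.10 to 0.031). In relative terms these intervals ran from −3.70% to 5.44% and from −6.70% to 2.15%.

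MAPK12 and MAPK11 encode p38γ and p38β. They are neighbours on the minus strand, at chr22:50245450-50261716 and chr22:50263713-50270767, with 1996 bases between them. MAPK12 had 2128, 2266 and 2608 normalized counts under vehicle and 1919, 1909 and 2078 under TGFβ1 in the wt-GR line. In the S134A-GR line it had 2655, 2488 and 2626 under vehicle and 1778, 2449 and 2376 under TGFβ1. Every TGFβ1 library was below every vehicle library of its line, but the groups nearly met, and the first TGFβ1 library of the S134A-GR line stood low. The log2 fold changes of MAPK12 were −0.24 (adjusted p = 0.12 by limma) and −0.25 (adjusted p = 0.12), which did not pass. Leaving out that library brought the value in the wt-GR line past the threshold (adjusted p = 0.019), through the spread that all groups share, with the log2 fold change at −0.24. Annotated exons of MAPK12 share 2763 bases with HDAC10 on the same strand, 29.7% of its exon length, and reads there cannot be assigned to either gene with certainty. MAPK11 had log2 fold changes of −0.11 and −0.16 (adjusted p = 0.48 and 0.30). In the S134A-GR line its TGFβ1 libraries were all below those under vehicle, but nearly met them (780 against 782).

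Among the kinases around p38, MAP2K4, MAPKAPK2 and RPS6KA5 did not pass the test either. MAP2K4 (chr17:12020829-12143830) had group means of 5308 ± 76.3 and 5212 ± 177 normalized counts (SD, n = 3) under vehicle and TGFβ1 in the wt-GR line, and 4688 ± 119 and 4554 ± 226 in the S134A-GR line. MAPKAPK2 (chr1:206684905-206734281), which encodes MK2, the best-studied kinase downstream of p38, had 14001 ± 44.8 and 14042 ± 159 in the wt-GR line and 13075 ± 151 and 13415 ± 362 in the S134A-GR line. Its 95% confidence intervals for the TGFβ1 response, −0.060 to 0.068 and −0.027 to 0.10 on the log2 scale, were the narrowest among the members. RPS6KA5 (chr14:90847861-91060641), which encodes MSK1, a nuclear kinase that phosphorylates CREB and histone H3, had log2 fold changes of 0.078 (adjusted p = 0.53 by limma) and 0.16 (adjusted p = 0.16). Its 3 S134A-GR libraries under TGFβ1 (1063, 971 and 981) were all above those under vehicle (929, 889 and 881). Such a separation is weak by itself, as an exact permutation test (two-sided) of 3 libraries against 3 cannot go below p = 0.1.

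Whether the lines differed in their response was tested by the difference itself. None of the 10 members passed an FDR of 0.05 with limma (0 of 10, beside 0.414% of all genes), with edgeR's quasi-likelihood test or with DESeq2, and 0 members had an unadjusted p under 0.05 with any of these. The lowest adjusted p was that of MAP2K6 (adjusted p = 0.58 by limma), whose response in the S134A-GR line minus that in the wt-GR line was −0.49 on the log2 scale (95% confidence interval −1.02 to 0.047). For MAP2K3 the difference was −0.093 (−0.25 to 0.061), for MAPK13 it was −0.061 (−0.24 to 0.12) and for MAPKAPK3 it was 0.034 (−0.062 to 0.13). In relative terms the interval of MAP2K6 ran from −50.8% to 3.32%, so that equal responses were not shown.

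The second question was whether the lines differed in the members at a given treatment. Under vehicle 9 of 10 members differed at an FDR under 0.05, 2 higher and 7 lower in the S134A-GR line, where 51.5% of all genes differed. Among the genes at least as abundant as MAP2K6, 65.6% differed. The median absolute log2 fold change was 0.21 for the members, 0.23 for those more abundant genes and 0.32 over all genes. Under TGFβ1 6 of 10 differed, 2 higher and 4 lower, where 48.8% of all genes and 62.9% of the more abundant ones did. Only MAP2K6 was past an absolute log2 fold change of 1 in these comparisons. The comparisons under vehicle and under TGFβ1 use other libraries of the same pair of clones. In these cultures, a smaller share of cells with a transcript and less transcript per cell cannot be told apart.

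**Figure D3:**
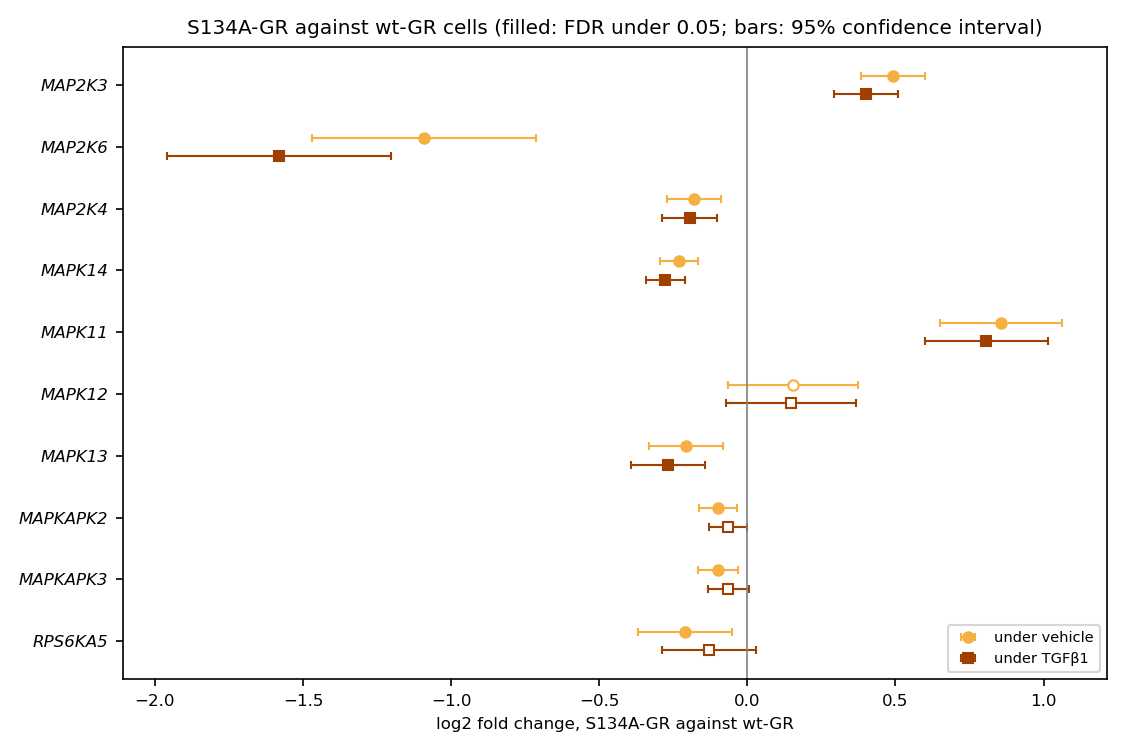
Difference between S134A-GR and wt-GR cells in the 10 members. The x axis gives the log2 fold change between the lines (S134A-GR over wt-GR), circles stand for cells under vehicle and squares for cells under TGFβ1, bars are 95% confidence intervals, and filled symbols passed an FDR of 0.05. MAP2K3 (0.49 and 0.40) and MAPK11 (0.86 and 0.81) lie to the right of 0, and MAP2K6 (−1.09 and −1.58) lies farthest to the left.

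The MAP2 kinases differed in opposite directions. MAP2K3 was higher in the S134A-GR line by 40.7% under vehicle (log2 fold change 0.49, adjusted p = 1.8e-06 by limma) and by 31.9% under TGFβ1 (adjusted p = 1.5e-05). MAP2K6 was lower in the S134A-GR line, at −53.1% under vehicle (log2 fold change −1.09, standard error 0.18, adjusted p = 1.2e-04 by limma) and −66.6% under TGFβ1 (log2 fold change −1.58, adjusted p = 4.3e-06). MAP2K4 was lower, with log2 fold changes of −0.18 (adjusted p = 0.0026) and −0.20 (adjusted p = 0.0015).

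Per kb of the MANE Select transcript, MAP2K3 exceeded MAP2K6 by a wide margin in every group. The ratio of MAP2K3 to MAP2K6 per kb was 213 ± 30.1 (SD, n = 3) in the wt-GR line under vehicle, 403 ± 49.8 under TGFβ1, 638 ± 7.07 in the S134A-GR line under vehicle and 1658 ± 489 under TGFβ1. The 4 groups did not overlap. The MANE transcript of MAP2K6 is 13405 bases long against 2256 for MAP2K3, and without division by length the ratios were 35.9 ± 5.06, 67.9 ± 8.38, 107 ± 1.19 and 279 ± 82.3 in the same order.

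Of the p38 genes, MAPK11 differed most between the lines. Its normalized counts under vehicle were 409, 489 and 458 in the wt-GR line and 782, 836 and 834 in the S134A-GR line. Under TGFβ1 they were 444, 384 and 427 against 643, 779 and 780. Every S134A-GR library was above every wt-GR library. MAPK11 was higher by a log2 fold change of 0.86 under vehicle (standard error 0.096, adjusted p = 4.2e-06 by limma) and 0.81 under TGFβ1 (adjusted p = 8.2e-06). MAPK14 was lower, with log2 fold changes of −0.23 (adjusted p = 2.0e-05) and −0.28 (adjusted p = 3.8e-06), with no overlap between lines. MAPK13 was lower too, at −0.21 (adjusted p = 0.0080) and −0.27 (adjusted p = 0.0015). MAPK12 did not pass (log2 fold changes 0.15 and 0.15, adjusted p = 0.23 and 0.26), but without the first TGFβ1 library of the S134A-GR line it was higher under TGFβ1 (log2 fold change 0.29, adjusted p = 0.0051).

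The 3 members that p38 activates were slightly lower in the S134A-GR line under vehicle. The log2 fold changes were −0.099 for MAPKAPK2 (adjusted p = 0.013 by limma), −0.098 for MAPKAPK3 (adjusted p = 0.018) and −0.21 for RPS6KA5 (adjusted p = 0.028). Under TGFβ1 none of the 3 passed (adjusted p = 0.083, 0.11 and 0.17). Of the 4 other kinases that p38 activates, MAPKAPK5 was higher under vehicle (log2 fold change 0.22, adjusted p = 0.0033 by limma). RPS6KA4 (−0.49) and MKNK2 (−0.35) were lower and MKNK1 (−0.051) did not pass, where 51.5% of all genes differed. The call for RPS6KA5 under vehicle was not firm. The groups overlapped at 917 to 1109 in wt-GR and 881 to 929 in the S134A-GR line, and the call was lost on leaving out any of 4 libraries, the second or the third vehicle library of either line (adjusted p = 0.070 to 0.12), and in a fit of only the groups compared (adjusted p = 0.075). The call for MAPKAPK3 was lost without the third vehicle library of the wt-GR line (adjusted p = 0.055) or that of the S134A-GR line (adjusted p = 0.072). MAPKAPK2 under TGFβ1 passed with edgeR (adjusted p = 0.046), with TMM scaling (adjusted p = 0.038) and without the first TGFβ1 library of the S134A-GR line (adjusted p = 0.041). MAPKAPK3 under TGFβ1 passed without the second TGFβ1 library of the wt-GR line (adjusted p = 0.049).

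The make-up of p38 transcripts was then described as the share of each gene in the summed level of the 4 p38 genes per kb of MANE Select transcript. MAPK14 held the largest share, 55.5% ± 1.82 (SD, n = 3) in the wt-GR line and 50.1% ± 0.573 in the S134A-GR line under vehicle. MAPK11 held the smallest, 3.25% ± 0.229 and 6.24% ± 0.293. MAPK13 rose from 18.4% ± 0.562 to 22.8% ± 0.728 with TGFβ1 in the wt-GR line and from 16.8% ± 0.160 to 20.8% ± 0.883 in the S134A-GR line, without overlap between groups. MAPK12 held 22.9% ± 2.03 and 19.0% ± 0.841 in the wt-GR line and 26.9% ± 0.598 and 23.3% ± 2.70 in the S134A-GR line. The exact permutation test (two-sided) of 3 libraries against 3 cannot go below p = 0.1. Of 16 such comparisons of shares, 11 reached p = 0.1 by the exact permutation test (adjusted p = 0.15 over the 16), so none could pass.

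The order of MAPK12 and MAPK13 depended on the length used. The MANE transcript of MAPK12 has 1778 bases, but its annotated exons add up to 9315 bases, 2763 of them shared with HDAC10. With all annotated exon bases as the length, MAPK12 held 7.47% and MAPK13 28.2% in the wt-GR line under vehicle. MAPK14 stayed the largest under each of these lengths.

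**Figure D4:**
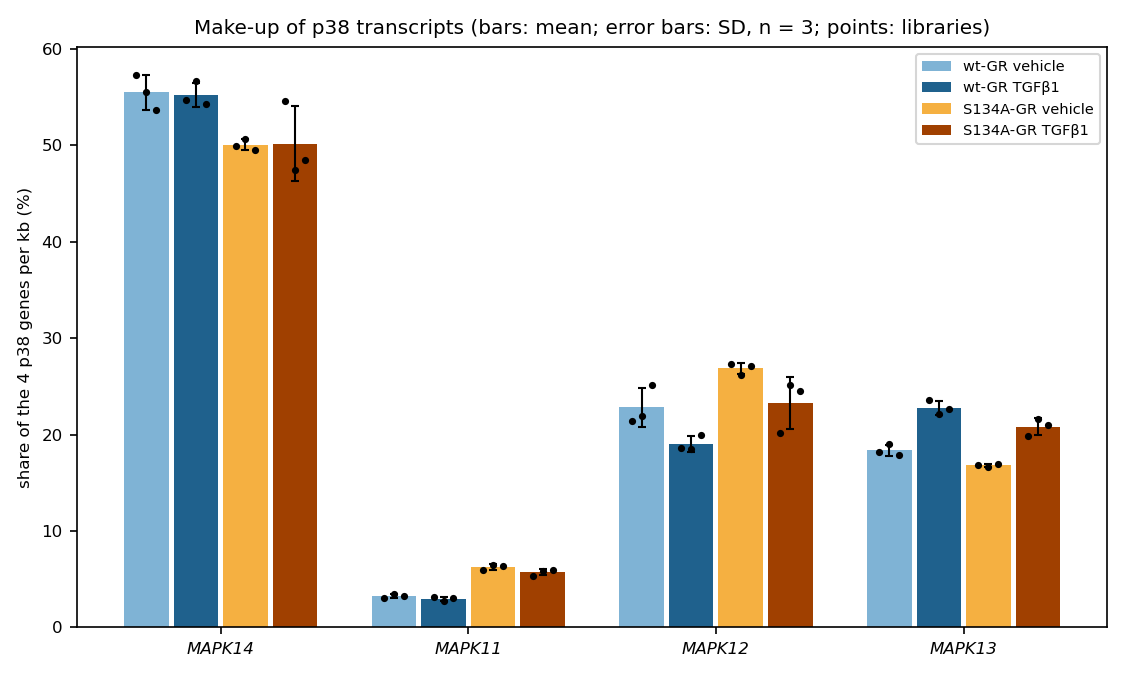
Share of each p38 gene in the summed level of the 4 genes per kb of MANE Select transcript. Bars are group means in percent, error bars are the SD (n = 3), points are libraries and the y axis starts at 0. MAPK14 holds at least 47.4% in every library, MAPK11 is higher in the S134A-GR line, and MAPK13 is higher under TGFβ1 in both lines.

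The rest of the pathway was taken from lists of genes with known roles, of which 55 were tested. In the wt-GR line TGFβ1 raised 13 and lowered 8 of the 55, and in the S134A-GR line it raised 10 and lowered 7. The background for these counts and for each list is the share of all genes that changed, 21.0% and 18.7%, or of the genes at least as abundant as MAP2K6, 29.4% and 26.5%. For the difference in response, 0 of 55 passed with limma, edgeR or DESeq2, and the unadjusted p was under 0.05 for 4, 5 and 4 genes. A call in the wt-GR or the S134A-GR line alone therefore does not show a difference in response. The median log2 fold change was 0.0074 in the wt-GR line and 0.026 in the S134A-GR line. In the paragraphs on these lists, genes with an absolute log2 fold change under 0.5 in both responses and under 1 between the lines are outside the naming rule and were picked once their values had been seen, so that small counts are complete.

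Of the upstream MAP3 and TAO kinases, 1 of 12 rose and 3 fell in the wt-GR line, and 1 rose and 1 fell in the S134A-GR line. Besides MAP3K5, these were MAP3K4 (log2 fold change 0.13), MAP3K1 (−0.33) and MAP3K3 (−0.16) in the wt-GR line and MAP3K20 (0.16) in the S134A-GR line. In the S134A-GR line MAP3K4 (0.12), MAP3K1 (−0.13) and MAP3K3 (−0.078) did not pass, and neither did MAP3K20 (0.068) in the wt-GR line. MAP3K5, which encodes ASK1, a MAP3 kinase above MKK3 and MKK6, fell in both lines with TGFβ1 (log2 fold changes −0.44 and −0.38). Its normalized counts under vehicle were 2333, 2308 and 2079 in the wt-GR line and 958, 993 and 1063 in the S134A-GR line, groups that stood far apart. MAP3K5 was lower in the S134A-GR line by a log2 fold change of −1.16 under vehicle (adjusted p = 8.7e-09 by limma) and −1.10 under TGFβ1 (adjusted p = 1.6e-08).

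Of 11 adaptors, scaffolds and upstream activators, 3 rose and 2 fell in the wt-GR line and 2 rose and 2 fell in the S134A-GR line. RAC1, a small GTPase above the MAP3 kinases, rose by 0.11 and 0.10 on the log2 scale, and TRAF6 rose by 0.23 in the wt-GR line. TRAF6 did not pass in the S134A-GR line (0.098). GADD45A fell by 0.31 and 0.27, and TAB1, a partner of TAK1, fell by 0.16 and 0.15. GADD45B encodes a stress-induced protein that activates MAP3K4. Its normalized counts were 4072, 4014 and 4297 under vehicle and 7722, 7286 and 7384 under TGFβ1 in the wt-GR line. In the S134A-GR line they were 4881, 4622 and 4424 under vehicle and 7826, 8313 and 8179.9 under TGFβ1. GADD45B rose in both lines (log2 fold changes 0.85 and 0.80, adjusted p = 7.2e-09 and 1.4e-08 by limma), and its responses differed by −0.050 (95% confidence interval −0.19 to 0.086).

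Of 6 phosphatases that act on p38, 3 rose and 1 fell in the wt-GR line and 1 rose in the S134A-GR line, the latter near the background. DUSP8, counted among them, had 0 to 15 reads in a library, near the floor, and could hardly pass. Besides DUSP10, the genes that changed were DUSP1 (log2 fold change 0.22), PPM1A (0.10) and DUSP16 (−0.14) in the wt-GR line. In the S134A-GR line DUSP1 (0.065), PPM1A (0.096) and DUSP16 (−0.057) did not pass. DUSP10, which encodes a phosphatase of p38 and JNK, rose in both lines (log2 fold changes 0.41 and 0.51, adjusted p = 0.0023 in the S134A-GR line by limma). The wt-GR libraries had 368, 442 and 446 normalized counts under vehicle and 594, 522 and 555 under TGFβ1. Those of the S134A-GR line had 369, 351 and 348 under vehicle and 473, 486 and 573 under TGFβ1, and the groups of each line did not overlap.

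Of 12 transcription factors and other substrates, 3 rose in the wt-GR line and 2 rose and 1 fell in the S134A-GR line, shares near the background. ZFP36L1, which encodes an RNA-binding protein that promotes mRNA decay, rose in both lines (log2 fold changes 0.38 and 0.34). The others that rose were ELK1 (0.22) and HSPB1 (0.21) in the wt-GR line and CREB1 (0.19) in the S134A-GR line. ELK1 (0.12) and HSPB1 (−0.016) did not pass in the S134A-GR line, nor did CREB1 (0.050) in the wt-GR line. The gene that fell was MEF2C, which encodes a transcription factor that p38 phosphorylates. Its normalized counts in the S134A-GR line were 218, 251 and 238 under vehicle and 174, 155 and 114 under TGFβ1 (log2 fold change −0.69, adjusted p = 0.0034 by limma). In the wt-GR line MEF2C had 399, 425 and 361 under vehicle and 314, 277 and 291 under TGFβ1, also without overlap. Its log2 fold change there, −0.42, fell just short of the threshold (adjusted p = 0.0502 by limma). The difference between the responses, −0.27, did not pass either. MEF2C was lower in the S134A-GR line by a log2 fold change of −0.74 under vehicle and −1.01 under TGFβ1 (adjusted p = 4.1e-05). Of the 4 other kinases that p38 activates, 1 rose and 1 fell in the wt-GR line and 1 fell in the S134A-GR line. These were RPS6KA4 (0.18) and MKNK1 (−0.17) in the wt-GR line and MKNK2 (−0.23) in the S134A-GR line. RPS6KA4 (0.084) and MKNK1 (−0.14) did not pass in the S134A-GR line, nor did MKNK2 (−0.12) in the wt-GR line.

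The parallel MAPK branches gave a comparison outside the p38 module. Of 10 kinases of the ERK, JNK and ERK5 branches, 2 rose and 1 fell in the wt-GR line, and 4 rose and 2 fell in the S134A-GR line. Between the lines, 0 were higher and 5 lower in the S134A-GR line under vehicle and 0 higher and 3 lower under TGFβ1, where 51.5% and 48.8% of all genes differed. MAPK10, counted among them, had 3 to 14 reads in a library, near the floor, and could hardly pass. MAP2K1, which encodes MEK1, rose by log2 fold changes of 0.30 and 0.24, and MAPK8, which encodes JNK1, by 0.13 and 0.21. MAP2K5, which encodes MEK5, fell by 0.17 and 0.19 on the log2 scale. In the S134A-GR line MAPK7 (0.20) and MAPK9 (0.11) also rose and MAPK3 (−0.12) fell. In the wt-GR line MAPK7 (0.082), MAPK9 (0.073) and MAPK3 (−0.096) did not pass.

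**Figure D5:**
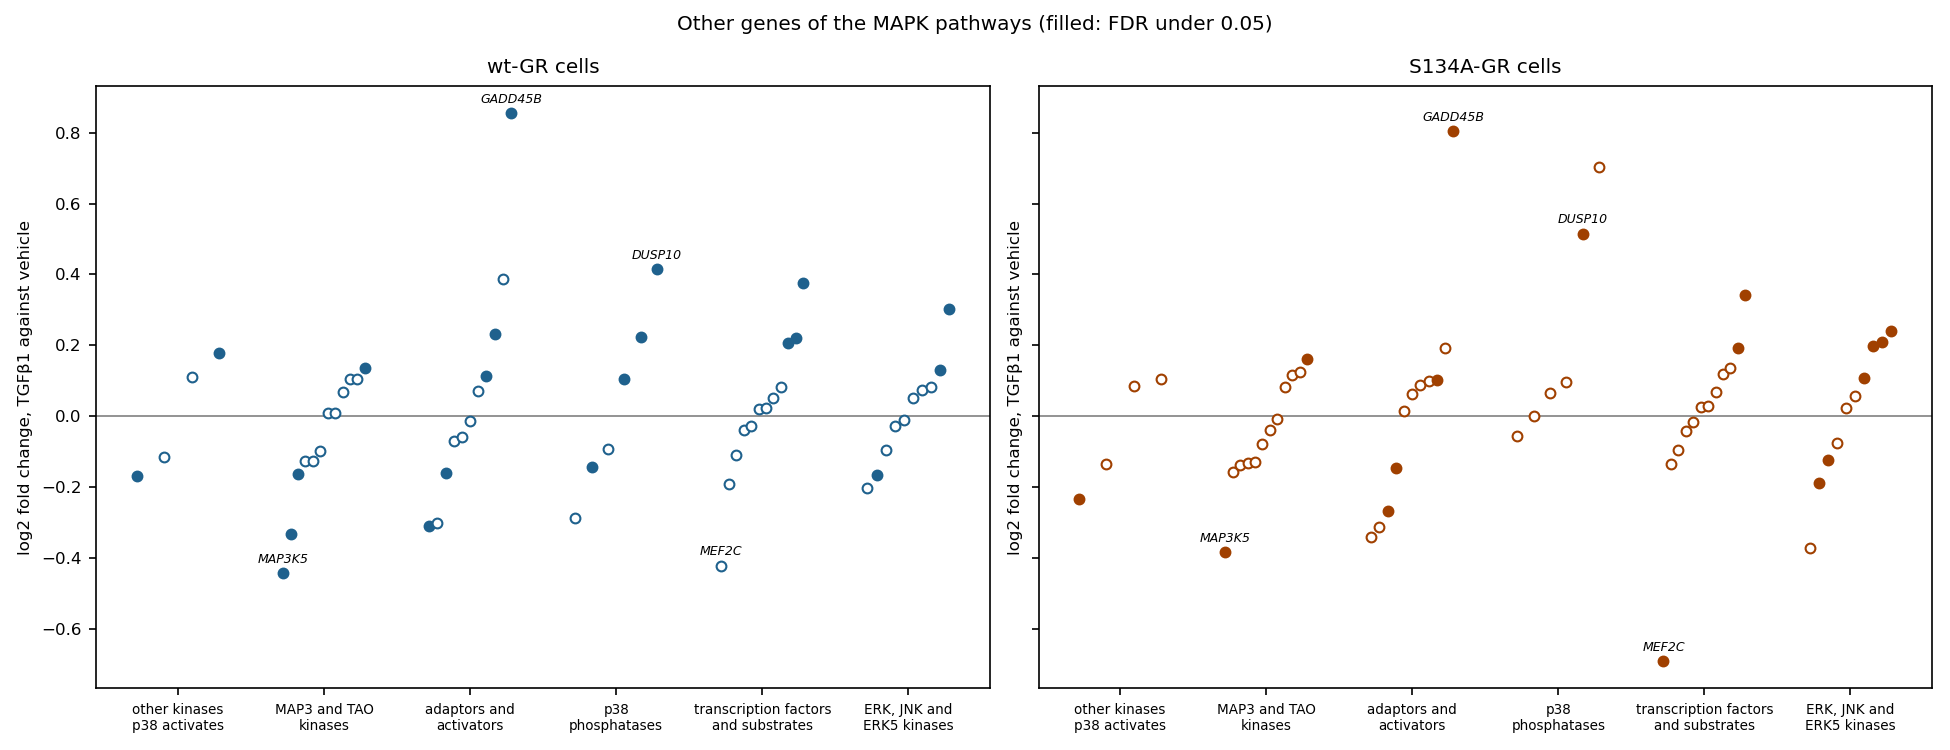
Response of the 55 other pathway genes to TGFβ1, by list. The y axis gives the log2 fold change of TGFβ1 against vehicle, the left panel shows wt-GR cells and the right panel S134A-GR cells, each point is a gene and filled points passed an FDR of 0.05. GADD45B (0.85 and 0.80) has the highest value in both panels, and the lowest is that of MAP3K5 (−0.44) in the wt-GR line and of MEF2C (−0.69) in the S134A-GR line.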

How the data were processed

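RNA-seq (75-base paired-end) was analysed in 12 libraries, 3 for each of 4 groups. The authors checked reads with FastQC (0.11.7), used Trimmomatic for trimming, HISAT2 for alignment to hg38, featureCounts (Subread) for counting and DESeq2 (1.22.2) for normalization. The versions of the aligner and counter, the annotation, the strand setting and whether pairs were counted as fragments are not given in the sources used here. The deposited values are a signal, read counts divided by the size factor of the library, per gene symbol and not per length. Every value (100%, within 0.01) was a whole multiple of 1 step per library, which gave back the reads (factors 0.614 to 1.40).

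Genes with 10 or more reads in all (18579) were fitted with limma (3.58.1, R 4.3.3) on log2(value + 1), with 4 group means, eBayes with trend and adjustment after Benjamini and Hochberg. On this scale the fold changes of low genes are understated. Calls were FDR under 0.05. The log2 cutoffs of 1 (lines, difference) and 1.5 (treatment) were counted too. edgeR (4.0.16) and DESeq2 (1.42.0) were run on the recovered reads as alternatives. The fit was also run on simulated counts with the same spread setting for every gene, which checks the calculation and not these data. The members and lists were chosen with earlier results of these data known. Pathway genes were named where FDR was under 0.05 with a log2 change of 0.5 (treatment) or 1 (lines), or for the difference, at a mean value of 50 or more. The 3 genes most like a member were those with the highest Pearson r over 12 libraries at a mean value of 100 or more. Lengths, positions and overlaps came from GENCODE v44 and upstream sequences from RefSeq (GRCh38.p14). MAP3K20 is listed under its older symbol ZAK. No pair of replicates was a duplicate: chi-square divided by its degrees of freedom was 8.69 to 43.7. 1 gene of the treatment check list is not reported here.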

Additional observations from a re-analysis of the deposited data

Results flagged for a closer look

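Among the members, 0 passed the test of unequal response to TGFβ1, which does not show that responses were equal. Of the other genes named, PMEPA1, a TGFβ1 target used to check the treatment, did. Its log2 fold change with TGFβ1 was 2.90 in the wt-GR line against 2.18 in the S134A-GR line, and the latter minus the former was −0.72 (standard error 0.076, adjusted p = 9.1e-04 by limma). Its normalized counts were 5093, 4588 and 4487 under vehicle and 36441, 35409 and 33922 under TGFβ1 in the wt-GR line. In the S134A-GR line they were 4370, 4528 and 4204 under vehicle and 20685, 20344 and 18576 under TGFβ1. The difference passed in all 21 alternatives run (−0.77 to −0.67, adjusted p = 7.1e-15 to 0.0070). Groups of 3 libraries were not tested for single outlying values.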

How the results depend on the processing

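Alternatives were edgeR and DESeq2 on recovered reads, pseudocounts of 0.5 and 16, 2 other filters, TMM scaling, only the groups compared, a replicate block, and each library left out. The block in edgeR and the exon-length shares were chosen after seeing the data. Of 1090 alternative log2 fold changes of members, 1058 kept direction and call, 8 lost a call, 6 gained one and 18 changed sign, none of these past the threshold. Members called ranged over the libraries left out from 4 to 5 (TGFβ1, wt-GR), 4 to 4 (TGFβ1, S134A-GR), 0 to 0 (difference), 7 to 9 (lines, vehicle) and 6 to 8 (lines, TGFβ1). Signs changed, over libraries left out, for the wt-GR response of MAP2K4 (−0.042 to 0.0018), MAPK14 (−0.0060 to 0.020), MAPKAPK2 (−0.0037 to 0.013) and RPS6KA5 (−0.013 to 0.12), and for the difference in response of MAP2K4 (−0.056 to 0.011), MAPK11 (−0.11 to 0.043), MAPK12 (−0.091 to 0.14) and MAPK13 (−0.11 to 0.020). The difference of MAPK12 was 0.0066 with edgeR and 0.014 with DESeq2, against −0.0067. All these values lay from −0.11 to 0.14, and none passed the threshold.

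With the replicate block, 4, 4, 0, 9 and 6 members were called in the same order, all shared with the fit without it. Deviations of same-numbered libraries had a mean r of 0.00025 over 18 pairs (−0.10 to 0.13). For libraries with different numbers the mean r was −3.6e-05 over 36 pairs (−0.15 to 0.18). A pairing between only some groups or in only some genes was not tested. MAP2K6 had the fewest reads of the members, with 40 or more in every library.

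p38 shares moved with the length used, in 28 of 32 values with another length, and the construction of the measure is the cause. Without division by length, in the order wt-GR vehicle, wt-GR TGFβ1, S134A-GR vehicle and S134A-GR TGFβ1, MAPK11 held 1.97, 1.72, 3.96 and 3.47%, MAPK12 10.2, 8.10, 12.6 and 10.4%, and MAPK13 29.1, 34.4, 27.9 and 33.0%, and under vehicle MAPK14 held 58.7 and 55.5%. With all exon bases, these were 5.01, 4.37, 9.82 and 8.64%, then 7.47, 5.93, 8.97 and 7.46%, then 28.2, 33.4, 26.5 and 31.3%, and for MAPK14 59.3 and 54.8%. Leaving out 1 of the 3 libraries of a group cannot move its mean by as much as 1 SD, so that step was no test of the shares.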

Other observations

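The genes whose levels followed a member most closely were sought for MAP2K3 and MAP2K6, the members with the lowest p in the TGFβ1 response of wt-GR and of S134A-GR cells, and MAP2K3 also had the lowest p between the lines under vehicle. Over the 12 libraries and 12467 genes, the 3 closest to MAP2K3 by Pearson's r of log2(value + 1) were DAGLB (0.986), C11orf68 (0.985) and NPAS2 (0.983). The 3 closest to MAP2K6 were SSFA2 (0.991), F2RL3 (0.989) and CDKN2C (0.985). The 12 libraries fall into 4 groups, and all genes of a library carry its depth and scaling. These values therefore mainly describe the pattern of the group levels.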
